A study of Homo sapiens with 10 samples.

Results

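The genes examined here were 52 human genes that encode enzymes which add or remove methyl and acetyl groups on histone lysines, with the core subunits EED and SUZ12 of one of these enzymes. They were chosen by name and found in the GENCODE v44lift37 annotation of GRCh37, where they were 52 of the 20098 protein-coding genes of chromosomes 1 to 22 and X, with 28 writers that add a mark and 24 erasers that remove one. The rule used no peak value, but the genes were chosen with earlier results of these data known. The data were 4 lists of peaks from MDAMB231, a human triple-negative breast cancer cell line, grown in DMEM with FBS and given no treatment. ChIP-seq, the sequencing of DNA recovered with an antibody to a modified histone, gave lists for H3K4me3, H3K27Ac and H3K4me1, and FAIRE-seq, the sequencing of DNA left free of nucleosomes after crosslinking, gave the fourth. Each list was made from 2 samples that the authors combined, with 1 input DNA sample for ChIP and 1 for FAIRE. There was thus 1 list per assay, with no error between replicates, no second condition and no test between groups of samples, and the lists give no read depth.

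Histone methyltransferases and acetyltransferases are called writers, and demethylases and deacetylases erasers. Trimethylation of H3K4 marks promoters, acetylation of H3K27 marks promoters and enhancers in use, monomethylation of H3K4 is best known from enhancers, and trimethylation of H3K27 by the Polycomb repressive complex 2 is a mark of silenced genes. Many of these enzymes are made in nearly every cell type, and several are altered in cancers or studied as drug targets. The lists record marks on the enzymes' own genes and say nothing of the enzymes' activity.

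A promoter was counted as marked when a peak shared at least 1 base with any annotated start site widened by 1 kb on each side. The score of a histone peak is 10 times the −log10 of p, with p as the peak caller gave it against input, and scores stop near 3100, a value that 56.8% of H3K4me3 peaks reached. For FAIRE the value is the height of the peak as the authors gave it. The lists held 18019 H3K4me3, 37495 H3K27Ac, 26771 H3K4me1 and 46552 FAIRE peaks. Against the label of the cell line, all 5 mesenchymal or basal marker genes reported here (VIM, ZEB1, AXL, CAV1 and CD44) had H3K4me3, H3K27Ac and FAIRE promoter peaks. Of 6 luminal or epithelial markers (CDH1, EPCAM, ERBB3, ESR1, FOXA1 and GATA3), 5 also had H3K4me3, 4 H3K27Ac and 3 FAIRE at the promoter, so that peaks at promoters did not set the marker groups fully apart. CDH1 had no H3K4me3 promoter peak, ESR1 and FOXA1 had no H3K27Ac, and EPCAM had a peak in all 4 lists.

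All 52 enzyme genes had an H3K4me3 promoter peak, where 67.3% of all protein-coding genes had one. The score was at the ceiling of 3100 for 50 of the 52, and the exceptions were SETDB1 at 3069 and KAT8 at 2838. This ceiling was reached by 55.1% of all genes and by 81.8% of those with an H3K4me3 promoter peak. H3K27Ac marked the promoters of 50 members, against 63.5% of all genes, and the 2 without it were SETD1B and HDAC11. FAIRE peaks lay at the promoters of 30 members, against 39.3% of all genes, and H3K4me1 peaks at those of 15, against 20%. H3K4me3, H3K27Ac and FAIRE promoter peaks were all found at 28 members, against 36.5% of all genes. The share was 54.3% of genes with an H3K4me3 promoter peak. These peaks were not always at the same start site. At CREBBP the H3K4me3 peak was centred 0.635 kb from the canonical start and the higher FAIRE peak 109 kb from it.

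Set against other genes with H3K4me3, the members were near the background in H3K27Ac, H3K4me1 and FAIRE. Among the 13532 protein-coding genes with an H3K4me3 promoter peak, 91.0% had H3K27Ac, 26.7% had H3K4me1 and 55.5% had FAIRE. The members' shares were 96.2%, 28.8% and 57.7%, close to those values. The members were also longer genes, with a median length of 68.6 kb against 27.3 kb, and had a median of 15 annotated start sites against 5, and the count over all start sites thus searched more places in a member than in another gene. With the canonical start site alone, 51 members had an H3K4me3 peak against 64.4% of all genes, 21 had a FAIRE peak against 31.4%, and 6 had an H3K4me1 peak against 12.3%. The 9 members whose FAIRE promoter peaks were all at other start sites were KMT2A, KMT2C, NSD2, CREBBP, KAT2B, KDM2A, KDM2B, HDAC5 and HDAC9. A value given for a gene below is that of its largest promoter peak at any start site, unless the canonical start is named.

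Writers and erasers were near each other in H3K4me3 and H3K27Ac. In H3K4me1 and FAIRE the erasers had the larger shares, with overlapping intervals, and the difference was not tested. H3K27Ac marked 27 of 28 writers and 23 of 24 erasers. H3K4me1 promoter peaks were found at 5 of 28 writers, or 17.9% (95% Wilson interval 7.88 to 35.6), and at 10 of 24 erasers, or 41.7% (24.5 to 61.2). FAIRE promoter peaks were found at 14 of 28 writers (32.6% to 67.4%), and at 16 of 24 erasers, or 66.7% (46.7 to 82.0). These intervals cover counting over genes alone. Each holds the share of genes with an H3K4me3 promoter peak, 26.7% for H3K4me1 and 55.5% for FAIRE. Of all genes, 20% had H3K4me1 and 39.3% had FAIRE at the promoter. The writers with H3K4me1 were KMT2A, EED, NSD2, DOT1L and KAT2B, and the erasers were KDM1B, KDM5B, KDM3B, KDM4B, KDM2A, KDM2B, HDAC4, HDAC5, HDAC7 and HDAC9. Only KMT2A, DOT1L, KDM1B, KDM3B, KDM4B and HDAC7 of these had an H3K4me1 peak within 1 kb of the canonical start.

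**Figure D1:**
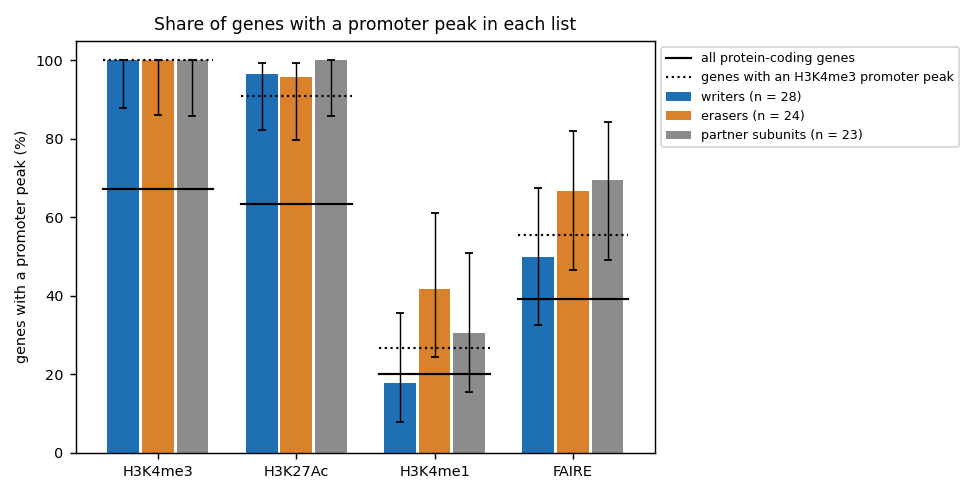
Share of genes (%) with a promoter peak in each list for the 28 writers, the 24 erasers and 23 partner subunits, with 95% Wilson intervals over genes as error bars. Solid lines give all protein-coding genes and dotted lines those with an H3K4me3 promoter peak, and the bars of H3K4me1 stand at 17.9% for writers and 41.7% for erasers.

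**Figure D2:**
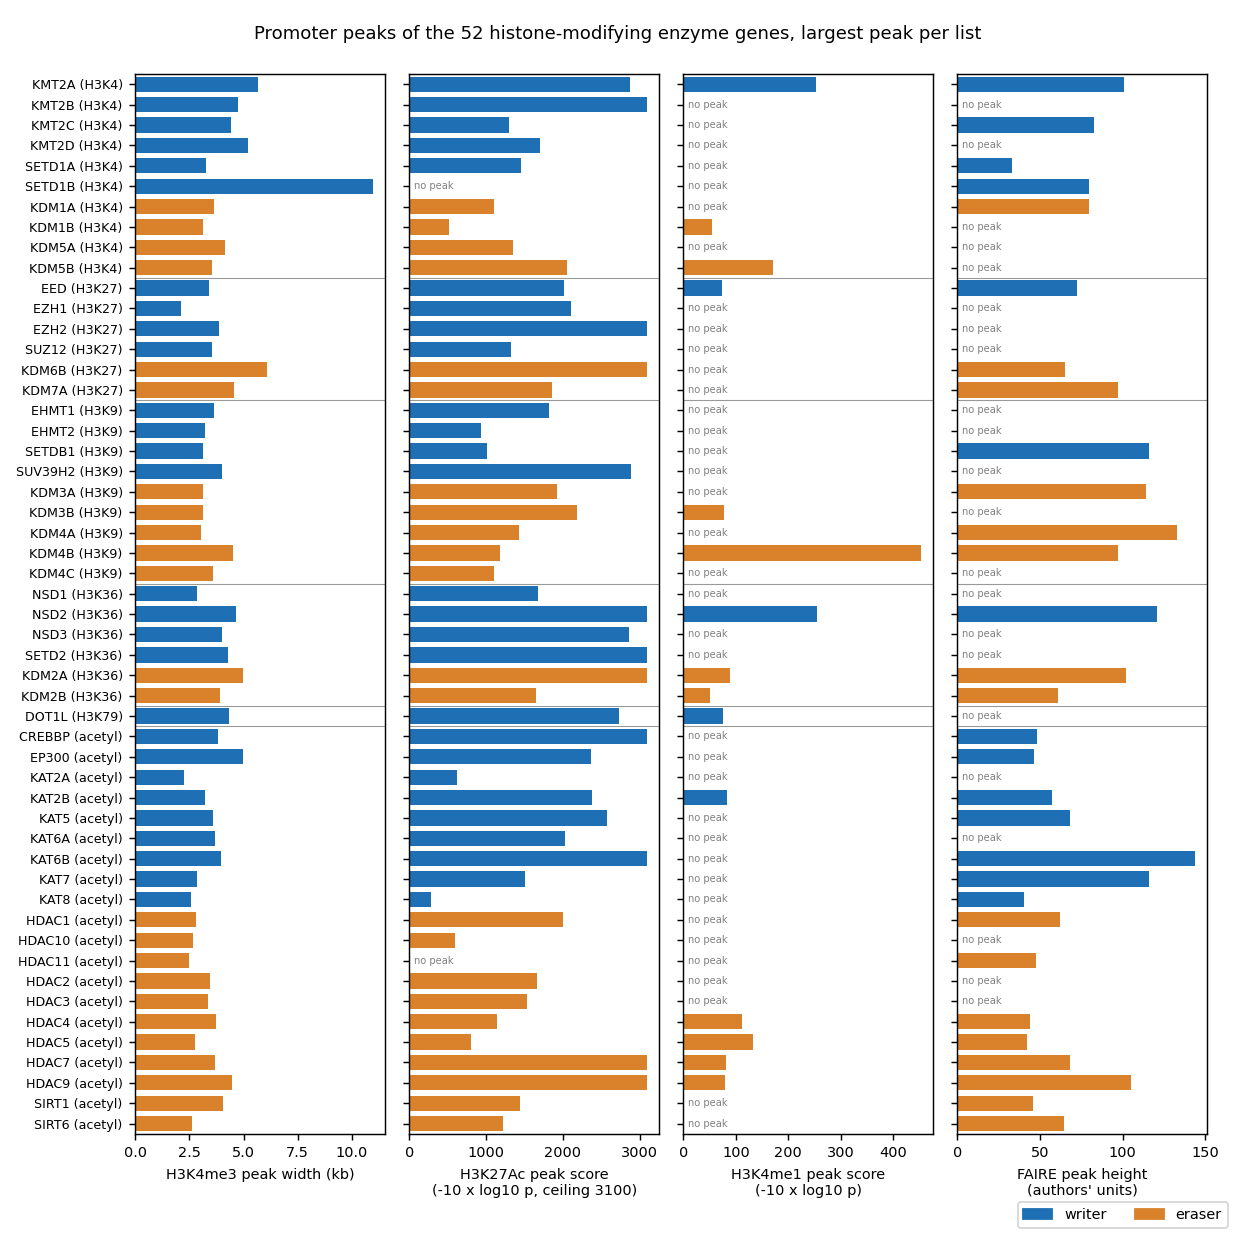
Largest promoter peak of each of the 52 genes in each list, ordered by the mark the enzyme acts on, as H3K4me3 width in kb, H3K27Ac and H3K4me1 score (minus 10 times the log10 of p) and FAIRE height. SETD1B stands alone in H3K4me3 width at 10992 bp and has no H3K27Ac bar. KDM4B has the highest H3K4me1 score at 453, from a peak 78.5 kb from its canonical start.

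Of the 6 writers of H3K4 methylation, 3 were among the 5 members with the widest H3K4me3 and 1 was below the members' median. The group holds KMT2A and KMT2B, which act at promoters, KMT2C and KMT2D, best known for monomethylation at enhancers, and SETD1A and SETD1B, the catalytic subunits of the SET1 complexes. Their median H3K4me3 promoter width was 4959 bp, against 3593 bp for the H3K4 erasers, 3642 bp for all members and 2973 bp for all genes with such a peak. The widths were 5674 bp at KMT2A, 4733 bp at KMT2B, 4402 bp at KMT2C, 5185 bp at KMT2D, 3280 bp at SETD1A and 10992 bp at SETD1B. SETD1B was the widest of its group by far and SETD1A the narrowest. The 5 widest of all 52 were SETD1B, KDM6B at 6085 bp, KMT2A, KMT2D and EP300 at 4995 bp.

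SETD1B and its paralog SETD1A differed in 3 ways. The SETD1B peak ranked 17 of 13532 in width, reached 7495 bp upstream and 3496 bp downstream of the start, and also held a start site of the neighbouring gene RHOF. It carried no H3K27Ac promoter peak, and the nearest H3K27Ac peak began 6.87 kb downstream of the start with a score of 273. Of the 26 genes with an H3K4me3 promoter peak of 10 kb or more, 2 lacked H3K27Ac, and of the 855 at 5 kb or more 8 did, or 0.936%, against 8.98% of all genes with an H3K4me3 promoter peak. SETD1A had an H3K27Ac score of 1452 and a FAIRE height of 33.4, while SETD1B had a FAIRE height of 79.9 with its centre 1082 bp upstream of the start. The promoter of SETD1A, the narrowest in H3K4me3 of the H3K4 writers, is printed as GRCh37 sequence on the + strand at chr16:30968825-30969124, from 250 bases before to 49 after the canonical start site. Capitals mark the GC box GGGCGG, read on either strand.
SETD1A promoter: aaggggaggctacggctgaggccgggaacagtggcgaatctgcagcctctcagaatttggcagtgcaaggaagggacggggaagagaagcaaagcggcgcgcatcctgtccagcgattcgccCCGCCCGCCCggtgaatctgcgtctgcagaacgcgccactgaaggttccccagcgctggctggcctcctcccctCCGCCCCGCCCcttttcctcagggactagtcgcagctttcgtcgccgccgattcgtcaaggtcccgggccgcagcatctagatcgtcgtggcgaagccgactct

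The other H3K4 writers had H3K27Ac scores of 2879 at KMT2A, 3100 at KMT2B, 1296 at KMT2C and 1708 at KMT2D. FAIRE peaks lay at a start site of KMT2A at a height of 101 and of KMT2C at 82.5, and at none of KMT2B and KMT2D. Neither of those peaks was at the canonical start, where the nearest FAIRE peak was centred 11406 bp upstream at KMT2A and 27943 bp upstream at KMT2C. KMT2A was the H3K4 writer with an H3K4me1 promoter peak, of score 253.

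FAIRE promoter peaks were found at 1 of 4 erasers of H3K4 methylation (95% Wilson interval 4.56% to 69.9%) and at 4 of 6 H3K4 writers (30% to 90.3%). These intervals overlapped widely, and both hold the 39.3% of all genes and the 55.5% of genes with an H3K4me3 promoter peak. With the canonical start site alone the counts were 1 of 4 and 2 of 6, against 31.4% of all genes. The erasers are KDM1A and KDM1B, flavin-dependent demethylases of mono- and dimethylated H3K4, and KDM5A and KDM5B, which remove trimethylation. H3K4me3 widths were 3654 bp at KDM1A, 3120 bp at KDM1B, 4128 bp at KDM5A and 3532 bp at KDM5B. H3K27Ac scores were 1109, 512, 1354 and 2051 in the same order. KDM1A alone had a FAIRE promoter peak, at a height of 79.8 and over the canonical start, and KDM1B and KDM5B alone had H3K4me1, at 55.2 and 171. All 4 erasers and 2 of 6 H3K4 writers had H3K27Ac peaks away from promoters, as did 42.4% of all genes, and the erasers were the longer genes, with a median of 76.3 kb against 35.2 kb.

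At the H3K27 enzymes, FAIRE promoter peaks were found at 1 of 4 writers and at both erasers. The Wilson intervals were 4.56% to 69.9% for the writers and 34.2% to 100% for the erasers. Both intervals hold the 39.3% of all genes and the 55.5% of genes with an H3K4me3 promoter peak. The writers were EZH2 and EZH1, the alternative catalytic subunits of Polycomb repressive complex 2, and its partners EED, which binds trimethylated H3K27, and SUZ12, a scaffold. FAIRE peaks lay at the promoter of EED, at a height of 72.5, and not at those of EZH1, EZH2 and SUZ12. H3K4me3 widths were 2105 bp at EZH1, 3888 bp at EZH2, 3397 bp at EED and 3543 bp at SUZ12. Taking the widest promoter peak of each gene, EZH1 was the narrowest of the 52, while at the canonical start KAT2A was narrower, at 1823 bp. H3K27Ac scores were 2108 at EZH1, 3100 at EZH2, 2018 at EED and 1330 at SUZ12. The erasers KDM6B, a demethylase of trimethylated H3K27, and KDM7A, which acts on dimethylated H3K27 and H3K9, had H3K4me3 widths of 6085 and 4545 bp and FAIRE heights of 65.1 and 97. Their FAIRE peaks were centred downstream of the canonical start, by 1337 bp at KDM6B and 1554 bp at KDM7A. With 4 and 2 genes, these groups are described and not compared by a test.

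Neither EZH1 nor EZH2 had a FAIRE peak anywhere in its bounds widened by 20 kb, which was also so for SETD2, SUV39H2 and HDAC10. Of all genes, 39.3% had a FAIRE promoter peak and 53.2% had one away from promoters in such bounds. The share with neither is not given here, so these values do not show how common such an absence was. The nearest FAIRE centre was 57108 bp upstream of the start of EZH2 and 28353 bp upstream of that of EZH1. EZH2 had the higher H3K27Ac score and the wider H3K4me3 peak. Their promoters are shown because they are paralogs with the same absence of FAIRE and different peak widths, both on the − strand of GRCh37, EZH1 at chr17:40897009-40897308 and EZH2 at chr7:148581334-148581633. Capitals mark GGGCGG and the NRF1 core GCATGCGC in EZH1, and GGGCGG and the CCAAT box in EZH2, each read on either strand.
EZH1 promoter: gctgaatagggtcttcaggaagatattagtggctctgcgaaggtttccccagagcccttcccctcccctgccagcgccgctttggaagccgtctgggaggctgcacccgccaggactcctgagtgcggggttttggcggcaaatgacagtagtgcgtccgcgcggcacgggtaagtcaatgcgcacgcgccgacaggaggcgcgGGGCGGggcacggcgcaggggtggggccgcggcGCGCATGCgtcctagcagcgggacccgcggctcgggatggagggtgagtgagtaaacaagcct
EZH2 promoter: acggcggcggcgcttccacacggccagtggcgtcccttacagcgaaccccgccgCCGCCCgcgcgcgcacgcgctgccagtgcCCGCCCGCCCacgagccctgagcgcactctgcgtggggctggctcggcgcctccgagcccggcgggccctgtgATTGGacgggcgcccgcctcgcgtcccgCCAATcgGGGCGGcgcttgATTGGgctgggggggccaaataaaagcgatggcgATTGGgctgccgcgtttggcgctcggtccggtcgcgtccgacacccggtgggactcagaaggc

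Acetyl writers and erasers had alike shares of FAIRE promoter peaks, with 7 of 9 and 8 of 11. The Wilson intervals were 45.3% to 93.7% and 43.4% to 90.3%. Both hold the 55.5% of genes with an H3K4me3 promoter peak and lie above the 39.3% of all genes. Of the genes counted, CREBBP, KAT2B, HDAC5 and HDAC9 had no FAIRE peak at the canonical start. Median H3K4me3 widths were 3604 bp for the writers and 3358 bp for the erasers. The median H3K27Ac score was 2371 for the 9 writers and 1484 for the 10 erasers with a peak, and both groups ranged to 3100, from 288 at KAT8 and from 596 at HDAC10. In this score the groups overlapped over nearly their full range.

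Among the acetyl writers, the paralogs EP300 and CREBBP, broad acetyltransferases that act at enhancers and promoters, had H3K4me3 widths of 4995 and 3819 bp, H3K27Ac scores of 2371 and 3100, and FAIRE heights of 46.6 and 48.0. The FAIRE peaks were at unlike places, centred 0.982 kb from the canonical start at EP300 and 109 kb from it at CREBBP, which had none at the canonical start. KAT2A and KAT2B, the catalytic subunits of SAGA and ATAC complexes, differed in more lists. KAT2A had an H3K4me3 width of 2261 bp, an H3K27Ac score of 615 and neither FAIRE nor H3K4me1, while KAT2B had 3201 bp, 2381, a FAIRE height of 57.2 and an H3K4me1 score of 82.8. The KAT2A values are from a start site in a peak shared with DHX58, and at the canonical start they were 1823 bp and 358. The FAIRE peak of KAT2B was 71.7 kb from its canonical start, and with the canonical starts alone neither gene had FAIRE or H3K4me1. KAT5, the catalytic subunit of the TIP60 complex, KAT7 and KAT8, which acetylates H4K16, had FAIRE heights of 68.4, 116 and 40.5.

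KAT6B and KAT6A, paralogs that acetylate H3 in complexes with BRPF proteins, differed in FAIRE and away from promoters. Away from promoters KAT6B, 208 kb long, had 1 H3K27Ac, 7 H3K4me1 and 4 FAIRE peaks, and KAT6A, 123 kb long, had 0, 0 and 1. KAT6B had the highest FAIRE promoter peak of the 52 genes, at 144, ranked 369 of the 7908 genes with one, and KAT6A had none. H3K4me3 widths were alike, at 3972 bp for KAT6B and 3681 bp for KAT6A, and H3K27Ac scores were 3100 and 2026. After KAT6B, the highest FAIRE promoter peaks were at KDM4A (133), NSD2 (121), SETDB1 (116) and KAT7 (116), so that writers and erasers were both among the 5. The KAT6B promoter is printed as the tallest FAIRE promoter of the members, at chr10:76586108-76586407 of GRCh37 on the + strand, with CCAAT on either strand and GGGCGG in capitals.
KAT6B promoter: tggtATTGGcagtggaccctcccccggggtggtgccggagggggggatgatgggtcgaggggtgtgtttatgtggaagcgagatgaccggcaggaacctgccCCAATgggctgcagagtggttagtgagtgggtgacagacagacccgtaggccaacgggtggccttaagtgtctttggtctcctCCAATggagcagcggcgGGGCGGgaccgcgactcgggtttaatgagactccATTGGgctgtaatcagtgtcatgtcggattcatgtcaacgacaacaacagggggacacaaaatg

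The deacetylases are given by class. HDAC1, HDAC2 and HDAC3, the class I enzymes of nuclear corepressor complexes, had H3K4me3 widths of 2783, 3434 and 3358 bp, H3K27Ac scores of 1996, 1665 and 1532, and a FAIRE promoter peak at HDAC1 only, of height 62.2. The class IIa enzymes HDAC4, HDAC5, HDAC7 and HDAC9, which shuttle between nucleus and cytoplasm and bind MEF2 factors, each had a promoter peak in all 4 lists, which 13.1% of all genes and 11 of the 52 members had. Their H3K27Ac scores were 1146, 809, 3100 and 3100, their H3K4me1 scores 112, 132, 82.0 and 80.0, and their FAIRE heights 43.7, 42.4, 68.4 and 105. In the class IIa genes other than HDAC7 the H3K4me1 peak was at another start site than the canonical one. At HDAC9 it was centred 298 kb from the canonical start, with H3K4me3 and FAIRE at other start sites. At HDAC4 it was 78.0 kb away, and the only H3K4me3 promoter peak was at the canonical start. With the canonical start site alone, or with basic transcripts, HDAC7 alone had all 4, and with stricter peaks none of the 4 genes did. The class IIa genes were also longer than those of class I, with medians of 202 and 41.6 kb and of 23 and 16 start sites, whose part in the counts was not tested.

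HDAC11, the class IV deacetylase, at chr3:13521224-13547924, was the other member without H3K27Ac. Its H3K4me3 peak was 2500 bp wide with a score of 3100, and a FAIRE peak of height 47.5 covered the canonical start. No H3K27Ac or H3K4me1 peak lay in its bounds widened by 20 kb, and the nearest H3K27Ac peak was 55.5 kb downstream of the start. HDAC11 and SETD1B both kept H3K4me3 at the ceiling and FAIRE at the promoter, while their H3K4me3 widths were 2500 and 10992 bp. HDAC10, SIRT1 and SIRT6, the last 2 of which are NAD-dependent deacetylases, had H3K27Ac scores of 596, 1436 and 1214 and no H3K4me1.

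The enzymes of other residues are given for completeness. Among H3K9 writers, SETDB1, which silences transposable elements, had the group's FAIRE promoter peak, and SUV39H2, EHMT1 and EHMT2 had none. Among H3K9 erasers, FAIRE heights were 114 at KDM3A, 133 at KDM4A and 97 at KDM4B, and KDM3B and KDM4C had none. KDM4B had the highest H3K4me1 promoter score of the members, 453, followed by 254 at NSD2 and 253 at KMT2A. The KDM4B and NSD2 peaks were centred 78.5 and 68.2 kb from the canonical start. KDM4B scored 75.2 at its canonical start, and among the members' canonical starts KMT2A was the highest, at 253. Among H3K36 writers, NSD2 had a FAIRE height of 121, and NSD1, NSD3 and SETD2, which trimethylates this residue, had none. The H3K36 erasers KDM2A and KDM2B had FAIRE heights of 102 and 60.8. DOT1L, the H3K79 methyltransferase, had the widest H3K27Ac promoter peak of the members, 11319 bp, and no FAIRE promoter peak.

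Around the canonical start site the H3K4me3 peak reached further into the gene than away from it at most members. It held the canonical start of 51 of the 52 genes, HDAC9 excepted, against 63.4% of all genes, and the downstream part was the longer in 41, or 80.4%, against 74.7% of all genes with a start in such a peak. The median reach was 1429 bp upstream and 2064 bp downstream for the members, against 1207 and 1648 bp for all genes. SETD1B was among the members with the longer part upstream. So were KMT2B, with 2756 bp upstream and 1976 bp downstream, and KAT6B, with 2342 and 1629 bp. A FAIRE peak covered the canonical start itself of 15 members, or 28.8%, against 26% of all genes and 38% of those with H3K4me3.

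**Figure D3:**
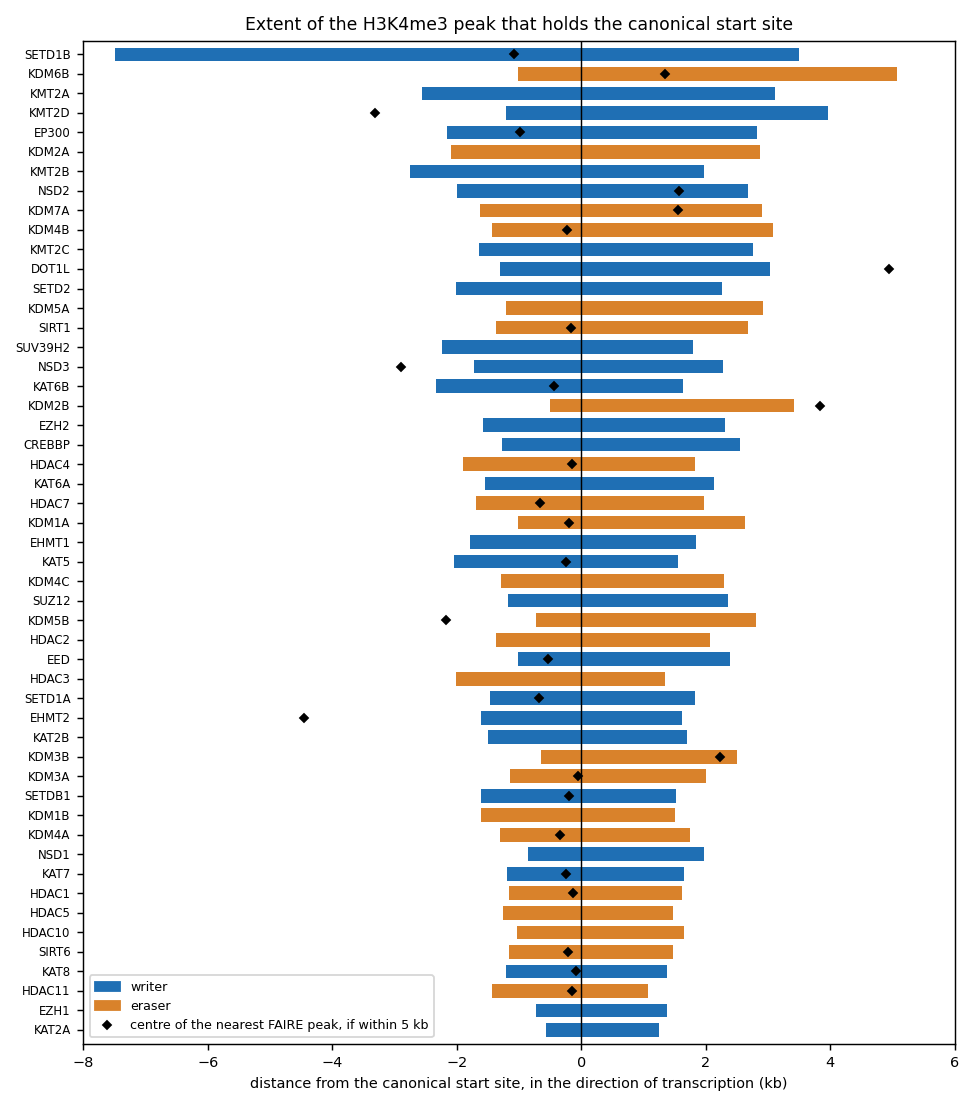
H3K4me3 peak that holds the canonical start site of 51 members, as distance from the start in kb in the direction of transcription, with diamonds at the centre of the nearest FAIRE peak where it was within 5 kb. SETD1B reaches 7495 bp upstream, KDM6B reaches 5073 bp downstream, and most diamonds lie just upstream of 0.

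In base composition the members' promoters were richer in GC than the median promoter with H3K4me3, a difference that is described and not tested. In the 300 bases around the canonical start, the median GC content was 71.5% and the ratio of observed to expected CpG 0.890, against 66.7% and 0.854 for genes with an H3K4me3 promoter peak and 63.7% and 0.773 for all. Motifs were searched on both strands of these 300 bases, as the CCAAT box, the GC box GGGCGG, the TATA box TATAAA, the ETS core CCGGAA, the NRF1 core GCATGCGC, the YY1 core AAGATGGC, the cyclic AMP response element TGACGTCA, the palindrome CTCGCGAG and the AP-1 site TGACTCA, none of which contains another. GGGCGG was found in 39 of 52 members, or 75%, against 61% of all promoters and 75% of those with H3K4me3, and CCAAT in 18, or 34.6%, against 35.9% and 35.7%. TATAAA was in 0 of 52, against 9.82% of all promoters and 5.09% of those with H3K4me3. CCGGAA was in 13, or 25%, against 22.6% of all promoters and 29.8% of those with H3K4me3. Of the others, GCATGCGC was in 2 members against 4.24% of all promoters and 5.63% of those with H3K4me3, TGACGTCA in 1 against 2.69% and 3.35%, CTCGCGAG in 1 against 1.45% and 2.02%, and TGACTCA in 2 against 3.58% and 2.67%. AAGATGGC was in 6 members, or 11.5%, against 4.03% of all promoters and 5.52% of those with H3K4me3. All 6 were writers (KMT2B, SUV39H2, DOT1L, CREBBP, KAT5 and KAT6A).

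By canonical start sites alone, few members had a coding gene head to head on the other strand. Such a gene started within 1 kb at 3 of 52, against 9.96% of all genes. The share was 14.2% of genes with an H3K4me3 promoter peak. These were KDM1B with TPMT at 345 bp, HDAC3 with RELL2 at 148 bp and SIRT6 with ANKRD24 at 126 bp, and all 3 were erasers. Counting every annotated start on either strand, an H3K4me3 promoter peak of 12 members also held a start of another coding gene. Of all genes with such a peak, 30.6% did. The other 9 were SETD1B, EHMT2, DOT1L, KAT2A, KAT5, KAT7, KDM1A, KDM4A and KDM5A. At these 12 genes such a peak cannot be given to one gene alone.

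Peaks away from promoters were those in the gene bounds widened by 20 kb that shared no base with 1 kb around the start site of any protein-coding gene. Such a peak is near or in the gene and may also lie in the window of a neighbour. H3K27Ac peaks of this kind were found at 29 members, or 55.8%, against 42.4% of all genes, H3K4me1 peaks at 24, or 46.2%, against 34.6%, and FAIRE peaks at 39, or 75%, against 53.2%. Of 28 writers, 13 had H3K27Ac, 11 H3K4me1 and 21 FAIRE, and of 24 erasers 16, 13 and 18. In all, the windows held 70 H3K27Ac, 67 H3K4me1 and 111 FAIRE peaks, of which the erasers had 50, 45 and 68. Without HDAC9, which is 915 kb long, the erasers had 35, 25 and 45 against 20, 22 and 43 in the writers, a count added after the data were seen.

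Since longer genes had more such peaks, the members were also set beside genes of their own length that had an H3K4me3 promoter peak. Among genes of 10 to 30 kb, 35.3% had H3K27Ac, 23.7% H3K4me1 and 48.3% FAIRE away from promoters, and of the 9 members of that length 3, 3 and 7 did. Among genes of 30 to 100 kb with an H3K4me3 promoter peak, 52.8% had H3K27Ac, 43% H3K4me1 and 64.3% FAIRE away from promoters, and of the 22 members of that length 12, 11 and 17 did. Among genes of 100 to 200 kb the shares were 74.4%, 69.7% and 82.7%, and of the 11 members 9, 7 and 9 had such peaks. Among genes over 200 kb they were 85.7%, 84.3% and 91.9%, and of the 6 members 5, 3 and 5 did. Of the 4 members under 10 kb, 0, 0 and 1 did, against 29.1%, 17.5% and 40.1%. The direction thus differed between lists and lengths. The peaks also met each other about as often as elsewhere. Of the members' 111 FAIRE peaks away from promoters 69.4% shared a base with H3K27Ac and 60.4% with H3K4me1, against 67.2% and 61.2% of all 37513.

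**Figure D4:**
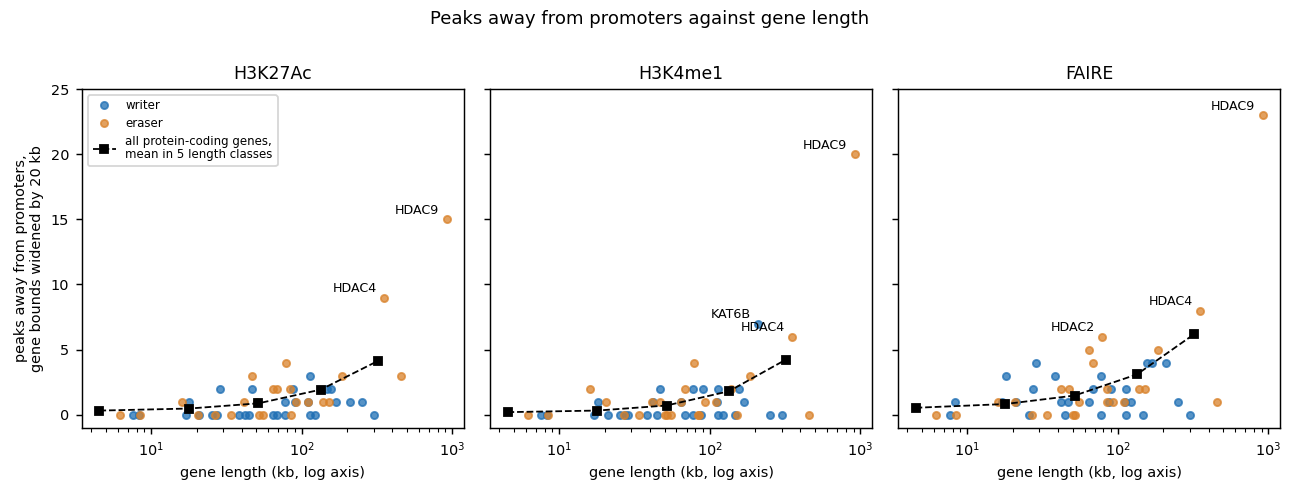
Number of H3K27Ac, H3K4me1 and FAIRE peaks away from promoters (gene bounds widened by 20 kb) against gene length in kb on a log axis, each point 1 member. Squares give the mean of all protein-coding genes in 5 length classes, and HDAC9 stands above them with 15, 20 and 23 peaks.

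By number, the most H3K27Ac and FAIRE peaks were found at the class IIa deacetylases HDAC9 and HDAC4, 2 of the longer members, and the most H3K4me1 peaks at HDAC9. Away from promoters they held 24 of the 70 H3K27Ac, 26 of the 67 H3K4me1 and 31 of the 111 FAIRE peaks. Per 100 kb, HDAC5 (3.45), HDAC2 (3.38) and SETD1B (2.91) had more H3K27Ac than HDAC4 (2.29) and HDAC9 (1.57). Counting every peak in the widened bounds, promoters included, H3K27Ac peaks numbered 18 at HDAC9, 10 at HDAC4 and 9 at HDAC5, with at most 5 at any other member. FAIRE peaks numbered 25 at HDAC9, 10 at HDAC4 and 7 at KDM4B, followed by 6 at KDM1A, CREBBP and HDAC2. Away from promoters, HDAC9 had 15 H3K27Ac, 20 H3K4me1 and 23 FAIRE peaks, which ranked 35, 18 and 31 of 20098 genes. HDAC9 is 915 kb long, and per 100 kb its values were 1.57, 2.09 and 2.41, with 76.2%, 89.0% and 79.4% of genes below. Its place among all genes was thus much higher by count than by density.

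HDAC9 lies at chr7:18126572-19042039 on the + strand and was the member whose canonical start had no H3K4me3. That start is at position 18535372, and the nearest H3K4me3 peak began 12.3 kb downstream. H3K4me3 was found at other start sites of the gene, in a peak of 2555 bp 409 kb upstream of the canonical start and in one of 4472 bp over start sites 13.5 kb downstream. The upstream peak had an H3K27Ac score of 149 and no FAIRE peak, and the downstream one an H3K27Ac peak of 7151 bp with a score of 3100 and FAIRE of height 105. The 3 sequences are printed because they differ in composition, all on the + strand of GRCh37. The upstream start at chr7:18126322-18126621 had a GC content of 77.7% and a CpG ratio of 1.21, the canonical start at chr7:18535122-18535421 had 47.3% and 0.311, the lowest CpG ratio of the 52, and the downstream start at chr7:18548646-18548945 had 40% and 0. Capitals mark GGGCGG or CCAAT on either strand.
HDAC9 upstream start: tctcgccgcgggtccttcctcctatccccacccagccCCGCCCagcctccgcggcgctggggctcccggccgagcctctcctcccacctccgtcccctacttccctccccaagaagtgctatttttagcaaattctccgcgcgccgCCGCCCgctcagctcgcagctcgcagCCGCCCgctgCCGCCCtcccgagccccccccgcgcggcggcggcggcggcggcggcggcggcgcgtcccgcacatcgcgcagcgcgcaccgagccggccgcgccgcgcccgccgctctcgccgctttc
HDAC9 canonical start: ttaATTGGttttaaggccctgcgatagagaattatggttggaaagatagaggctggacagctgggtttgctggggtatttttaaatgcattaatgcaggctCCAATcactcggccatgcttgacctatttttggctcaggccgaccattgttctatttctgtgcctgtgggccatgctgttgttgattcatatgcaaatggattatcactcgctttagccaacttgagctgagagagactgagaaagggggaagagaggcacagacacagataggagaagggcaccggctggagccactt
HDAC9 downstream start: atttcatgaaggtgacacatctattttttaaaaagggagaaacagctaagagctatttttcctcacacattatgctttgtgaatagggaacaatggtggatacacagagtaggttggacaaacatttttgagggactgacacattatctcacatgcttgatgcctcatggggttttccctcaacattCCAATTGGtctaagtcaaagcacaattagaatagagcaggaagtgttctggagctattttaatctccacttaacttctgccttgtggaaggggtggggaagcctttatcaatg

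Along HDAC9 the strongest H3K27Ac peaks away from promoters had scores of 3100 at 400 kb, 2775 at 274 kb and 2250 at 172 kb downstream of the canonical start. Of its 15 such H3K27Ac peaks, 12 met H3K4me1 and 12 met FAIRE, and none of its 23 FAIRE peaks met H3K4me3. The annotated bounds of TWIST1, a transcription factor of the epithelial-mesenchymal transition on the other strand, begin 18.6 kb beyond the 3′ end of HDAC9, so that peaks near that end are in the windows of both. HDAC4, at chr2:239969864-240323348, had 9 H3K27Ac, 6 H3K4me1 and 8 FAIRE peaks away from promoters. Of these H3K27Ac peaks, 5 lay 121 to 154 kb downstream of its start, with the highest scores of 2521 at 134 kb and 2057 at 126 kb.

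**Figure D5:**
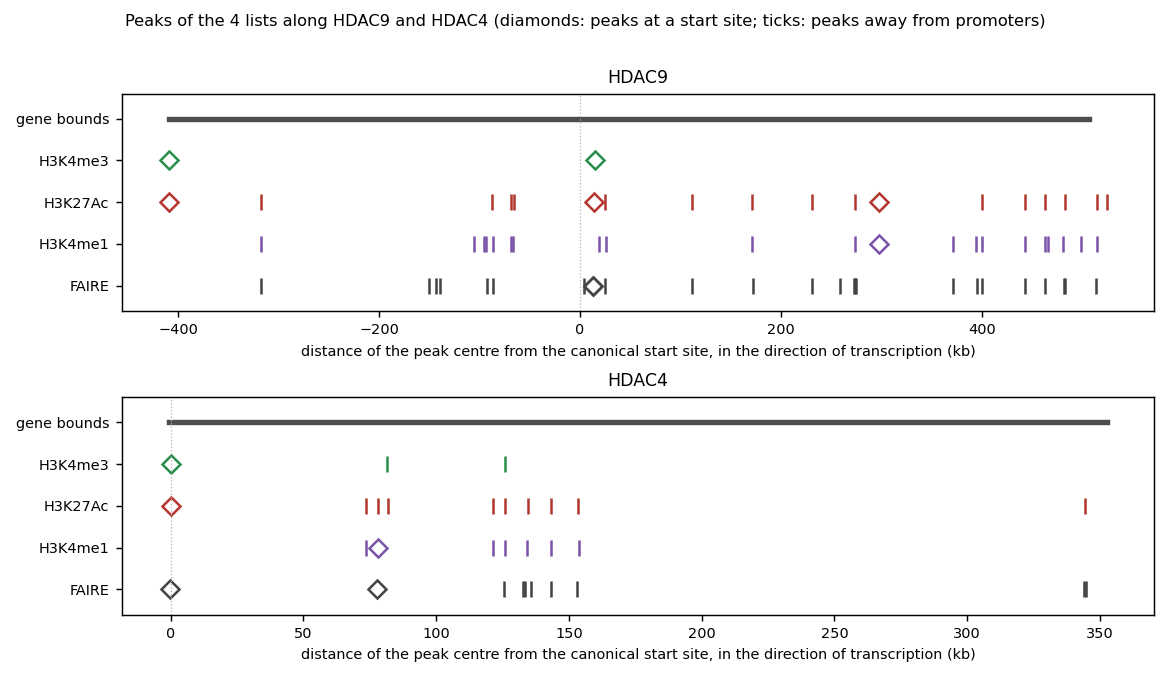
Position of the centre of every peak along HDAC9 and HDAC4, as distance from the canonical start site in kb in the direction of transcription, with 1 line for each list. Diamonds are peaks at an annotated start site and ticks are peaks away from promoters, and the ticks of HDAC4 gather 121 to 154 kb downstream of the start.

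The AP-1 letters TGACTCA, on either strand, were looked for in the 300 bases at the centre of each FAIRE peak away from promoters. They were in 34.3% of all 37513 such peaks. In the members' windows they were in 29 of 111, or 26.1%, with 12 of the 23 at HDAC9, or 52.2% (95% Wilson interval 33.0 to 70.8), and 3 of the 8 at HDAC4. In the windows of the other members, HDAC4 included, they were in 17 of 88, or 19.3% (12.4 to 28.8). The HDAC9 interval holds the 34.3% of all such peaks, and that of the other members lies below it. HDAC9 was the member with the most FAIRE peaks, and the difference was not tested. One of the HDAC9 peaks, by rounded height among the tallest of its 23, is printed to show the letters, in capitals, at chr7:19017842-19018141 of GRCh37 on the + strand, 483 kb downstream of the canonical start, with a FAIRE height of 114.
HDAC9 FAIRE peak: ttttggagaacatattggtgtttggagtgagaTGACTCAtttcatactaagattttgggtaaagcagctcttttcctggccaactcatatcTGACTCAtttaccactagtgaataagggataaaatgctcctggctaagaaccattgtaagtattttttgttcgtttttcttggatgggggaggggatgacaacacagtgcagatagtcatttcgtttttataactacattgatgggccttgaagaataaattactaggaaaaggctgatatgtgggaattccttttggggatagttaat

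Other members had single strong regions away from promoters. KDM1A had an H3K27Ac peak of score 3100 centred 82.5 kb downstream of its start, beyond the 3′ end of its 64.2 kb, with an H3K4me1 peak of 10347 bp and score 917, and with 4 FAIRE peaks of height 72.1 to 116. KAT6B had 7 H3K4me1 peaks, of which 1 met H3K27Ac, at 97.1 kb downstream with an H3K4me1 score of 905 and an H3K27Ac score of 3100. HDAC2 had 4 H3K27Ac, 4 H3K4me1 and 6 FAIRE peaks, all of the FAIRE peaks upstream of the canonical start, and its strongest H3K27Ac peak, of score 3100 and 7245 bp, was centred 27.1 kb upstream. KDM4B had its tallest FAIRE peak away from promoters, 160, at 204 kb downstream, beside an H3K27Ac peak of score 2345 and 7984 bp.

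The enzymes work in complexes, and 23 genes of partner subunits were counted in the same way. All 23 had H3K4me3 and H3K27Ac promoter peaks, 7 had H3K4me1 and 16 had FAIRE. Their shares were 30.4% for H3K4me1 and 69.6% for FAIRE, against 26.7% and 55.5% of genes with an H3K4me3 promoter peak and 20% and 39.3% of all genes, and 91.0% of the former had H3K27Ac. WDR5, RBBP5, ASH2L and DPY30, the shared core of the H3K4 methyltransferases, had FAIRE at RBBP5 (88.4) and DPY30 (34.0). Of 6 Polycomb repressive complex 2 subunits counted as partners, FAIRE peaks were at JARID2 (45.1), MTF2 (62.6), PHF19 (56.6), PHF1 (53.5) and RBBP4 (58.1) and not at AEBP2. Of its 4 genes among the members EED alone had one, and the difference was not tested. Among the corepressor subunits SIN3A, NCOR1, RCOR1, MTA1 and MTA2, FAIRE was absent at MTA1, and heights ran from 48.2 at RCOR1 to 119 at MTA2. The lowest H3K27Ac score of the partners was 227 at MEN1, and the highest FAIRE was 139 at NCOA6.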

How the data were processed

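The deposited lists came from MDAMB231 cells, with 2 samples combined for each assay and 1 input sample each for ChIP and FAIRE. The authors used BWA for the alignment to GRCh37, filtered out duplicates and poorly mapped reads, and then ran MACS for the histone marks and FindPeaks for FAIRE, both against input. Histone scores are on the −log10 scale of the deposited p-value, multiplied by 10. The FAIRE value is the height of the signal as the authors gave it, with a scaling not given in the sources used here. Lists of the HMEC cells were not analysed here.

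Peak starts were taken as 0-based and moved by 1 base. Overlaps of at least 1 base with genes of GENCODE v44lift37 were found with pandas 2.3.3 and numpy 2.4.6. On 3000 simulated intervals, 0 results differed from bedtools 2.31.1. Intervals are Wilson intervals from scipy 1.17.1. The canonical start is that of the transcript with the canonical tag, which 19819 genes had, and the outer end of the gene otherwise. Promoter sequences were read from the GRCh37 genome. Because each list stood for 2 combined samples, p-values between groups of samples could not be had, and none over genes were computed.

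Genes were named by rule. Every member without an H3K4me3, H3K27Ac or FAIRE promoter peak was named, and every member with H3K4me1 there. The 5 widest in H3K4me3 and the 5 highest in FAIRE were named too. So were those with the most H3K27Ac and FAIRE peaks in the widened bounds. For H3K27Ac these ended with HDAC5, and the next members were tied at 5 peaks. Others were named where their role group is described. The members, the lists of partners and markers, and the motifs were chosen with earlier results of these data known. Other promoter widths, gene windows, transcript sets, stricter peaks and peak centres were tried. Some marker and partner genes and 1 promoter sequence are not reported here.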

Additional observations from a re-analysis of the deposited data

How the results depend on the processing

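Of 104 values recomputed under another setting, 88 stayed within 1.5 times the reported count. The H3K4me1 promoter counts moved most. From 15 members, 5 writers and 10 erasers, they fell to 9, 3 and 6 with the peak centre in the window, to 6, 2 and 4 with stricter peaks (score of 100 or more), to 9, 3 and 6 with basic transcripts only, and to 6, 2 and 4 with the canonical start site, an alternative chosen after the data were seen. The share of all genes fell with them, from 20% to 8.64%, 11.2%, 14.9% and 12.3% in the same order. Erasers were the more numerous in each. Writers with a FAIRE promoter peak, 14 as reported, were 9 with stricter peaks (height at or above the list's median), 9 with basic transcripts and 9 with the canonical start, where the share of all genes, 39.3% as reported, was 24.4%, 34.6% and 31.4%. Members with FAIRE away from promoters, 39 as reported, were 25 with stricter peaks. The cause of these moves was not tested, beyond that each setting keeps fewer peaks or start sites or asks more of an overlap. SETD1B and HDAC11 had no H3K27Ac promoter peak under any setting. No paired analysis was possible because the samples of an assay had been merged into 1 list, and for the same reason no sample could be left out. The lists give no depth, so that a missing peak may be a weak one, and scores at the 3100 ceiling cannot be ranked.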
